A study of Mus musculus with 24 samples.

Results

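The genes described here are 37 that serve protein folding in the endoplasmic reticulum (ER): chaperones, their partners, enzymes of disulfide bond formation, the machinery of ER-associated degradation, and the 3 sensors of the unfolded protein response. They were chosen by name, and each was read from the probe set of that gene with the highest mean over 24 arrays. All 37 were measured among the 18193 genes with a probe set of their own. RNA came from the spleen of female C57BL/6 mice, aged 8 to 10 weeks, or 8 to 10 weeks at immunization. The 8 groups held 3 arrays each.

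Naive follicular B cells were sorted as B220+ AA4.1- CD21int CD23+ after depletion with antibodies that included CD138, CD11b and Gr-1, and marginal zone B cells were sorted from the same depletion as CD21high CD23low. Stimulated follicular cells had been sorted likewise and then kept for 6 h with 10 µg/ml of F(ab')2 against mouse IgM and 2 µg/ml of a rat antibody against mouse CD40. The remaining groups came from mice given NP-CG (also written NP-CGG) in alum, depleted with antibodies that included Gr1 and F4/80 but neither CD138 nor CD11b. Cells binding the hapten NIP were sorted as B220+ IgG1+ CD38+ PNA- memory cells at day 7 and day 40, as B220+ IgG1+ CD38dull PNA+ germinal center cells at day 7 and day 40, and as B220+ IgG1low CD138+ Igλ+ plasma cells at day 7. No unstimulated culture was analysed here, so culture and stimulation cannot be told apart. Nothing in the labels ties the 3 samples of a group to different animals, so p-values measure only the spread between samples, which may be technical.

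Proteins bound for secretion enter the ER unfolded. Chaperones of the HSP70 and HSP90 families and the lectins calnexin and calreticulin hold them while disulfide isomerases pair their cysteines, and proteins that do not fold are sent back to the cytosol and degraded. When unfolded protein builds up, IRE1 (the product of Ern1), ATF6 and PERK (Eif2ak3) start the unfolded protein response: IRE1 splices Xbp1 mRNA, ATF6 is cut to a transcription factor, and PERK slows translation. Plasma cells, which secrete antibody, are the B lineage cells best known for this program.

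Values are log2 signals, with a floor of 2.15 and a highest value of 16.43. A change is the difference of 2 group means ± SE from limma, fitted over all 24 arrays, and p-values are adjusted by Benjamini-Hochberg over the 11208 genes tested. A gene was called, and is said to rise or fall, at an adjusted p under 0.05 with a log2 change of at least 1, a fold of 2. All 37 members passed the filter, which asked that the signal exceed its array's median on 3 or more of the 24 arrays, and 34 did so on all 24. Pdia5 and Selenom passed through the 3 plasma arrays only. In bulk RNA, fewer cells of a type and less RNA per cell cannot be told apart.

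The sorted groups were checked against marker genes. Summed over 6 plasma cell markers, the signal ran from 81.03 to 82.6 on the plasma arrays and from 42.1 to 59.25 on the others. Myeloid markers moved with that group: 7 of them summed to 61.57 to 64.08 on the plasma arrays and to 23.63 to 25.36 on the follicular ones, with S100a8 at 13.29 ± 0.13 and Lyz2 at 13.16 ± 0.28 (SD, n = 3) in plasma cells and Adgre1 and Itgam at background there. T cell markers (5 genes) summed to 12.4 to 18.23 on the plasma arrays and 10.75 on each follicular one, through Thy1 and Cd4 with Cd3e, Cd3d and Cd3g at background, and NK cell markers (3 genes) to 7.94 to 15.8 against 6.45, with Ncr1 at background. Single arrays of other groups also stood apart: the myeloid sum was 58.06 on memory day 7 replicate 1, 56.13 on memory day 40 replicate 2 and 57.56 on germinal center day 40 replicate 1. Memory day 7 replicate 1 had a sum of 75.85 over 7 germinal center markers, against 42.8 and 46.48 on the other memory arrays of that day.

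Promoters of the members were searched for short sequence elements of the ER stress response. The RefSeq table of windows from 250 bases before to 50 bases after each start (GRCm38.p6) held 33 of the 37 members, all but Hyou1, Manf, Derl1 and Atf6. The ER stress response element, ERSE, was searched on both strands as CCAAT and CCACG with 9 bases of any kind between them. It was found in 10 of the 33 members (30.3%), against 13 of the 9102 tested genes with a window (0.143%, the members included) and 0.119% of all 32851 windows. A shorter form, ERSE-II, searched as ATTGG and CCACG with 1 base between them, was found in Dnajb11 and Herpud1, and in 0.0879% of the tested genes. The element TGACGTGG, known as UPRE, which shares CGTGG with the ERSE read on the opposite strand, was in 0 of 33 members and in 1.05% of tested genes. No member had both ERSE and ERSE-II. A match describes these letters and shows no binding.

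The windows printed here belong to members whose values are described below. Each runs 5′ to 3′ on the strand of the gene, with the matches in capitals. Hspa5 and Hsp90b1 encode the ER's HSP70 and HSP90, and Hsp90b1 has 2 matches.
Hspa5, chr2:34772010-34772058, plus strand: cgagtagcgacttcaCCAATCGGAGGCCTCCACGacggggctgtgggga
Hsp90b1, chr10:86705518-86705671, minus strand: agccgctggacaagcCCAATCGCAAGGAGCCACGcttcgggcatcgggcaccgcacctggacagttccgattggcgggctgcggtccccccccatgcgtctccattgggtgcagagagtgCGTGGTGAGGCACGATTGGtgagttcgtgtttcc
Derl3 and Creld2 were among the members with the largest plasma cell rise of their role.
Derl3, chr10:75893227-75893275, plus strand: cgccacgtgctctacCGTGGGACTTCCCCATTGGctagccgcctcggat
Creld2, chr15:88819505-88819553, plus strand: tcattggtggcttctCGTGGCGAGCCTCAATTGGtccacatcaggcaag
Canx did not pass the minimum change in plasma cells on the probe set used.
Canx, chr11:50325785-50325833, minus strand: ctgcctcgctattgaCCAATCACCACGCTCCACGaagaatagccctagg
Ero1b, Syvn1 and, with ERSE-II, Herpud1 fell in stimulated follicular cells.
Ero1b, chr13:12565667-12565715, plus strand: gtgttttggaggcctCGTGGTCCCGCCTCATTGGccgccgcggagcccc
Syvn1, chr19:6046517-6046565, plus strand: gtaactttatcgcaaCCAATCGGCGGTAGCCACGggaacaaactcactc
Herpud1, chr8:94386362-94386402, plus strand: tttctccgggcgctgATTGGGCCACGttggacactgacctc

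Members rose in plasma cells with and without an ERSE. The 10 with a match had a median plasma minus follicular change of 1.41, and 7 of them were called higher. The 23 without one had a median of 2.44, and 19 were called higher. Among the 23 are Dnajb11 and Herpud1, which have an ERSE-II, and also Pdia5 and Selenom. Pdia5 and Selenom passed the filter through the plasma arrays only, and their changes are lower bounds. These medians and counts rest on the probe set used for each member. Other probe sets gave other sizes for members with an ERSE, among them Pdia6 (5.75 against 2.84 on the one used) and Hsp90b1 (3.27 against 2.04). Canx and Ero1b, which also have an ERSE, are described below. Sizes differed too for members without one, among them Os9 (4.98 against 2.19) and Sel1l (4.38 to 6.94 against 1.6). The other 3 tested genes with an ERSE did not rise in plasma cells: Alg12 changed by 0.02 ± 0.18 (adjusted p = 0.969 by limma), Pan2 by -1.11 ± 0.21 and Adcy3 by -2.21 ± 0.38. Of the other tested genes with an ERSE-II, Lgalsl (6.34 ± 0.35), Nucb1 (2.88 ± 0.32) and Krtcap2 (1.5 ± 0.12) rose. Lrif1 (-0.61 ± 0.23), Rcl1 (-0.49 ± 0.15) and Rbm39 (-0.41 ± 0.1) were not called.

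Across the 8 groups, plasma cells stood apart. For 32 of the 37 members the plasma mean was the highest of the 8, and for 32 all 3 plasma arrays lay above all 21 others, as held for 11.8% of the genes tested. The exceptions, on the probe sets used, were Canx, Ero1a, Dnajc10, Eif2ak3 and Ero1b. Canx and Ero1a were highest in stimulated follicular cells, but not on all other probe sets. Dnajc10 and Eif2ak3 were highest in germinal center cells of day 7, and Ero1b in memory cells of day 7. Without cross-hybridizing probe sets, Dnajc10 was above memory cells of day 7 by 1.51 in plasma cells and by 0.95 in germinal center cells of day 7. Pdia5 and Selenom are in both counts of 32. They passed the filter through the plasma arrays only, so their order was fixed in advance. Among the remaining 7 groups, stimulated follicular cells had the lowest mean for 14 members, where 27.6% of tested genes had it there, and the highest for 8, where 26.3% did. The median deviation of the members from their mean over groups was 1.72 to 2.05 on the plasma arrays and -0.7 to -0.06 on all others. On memory day 7 replicate 1, memory day 40 replicate 2 and germinal center day 40 replicate 1, whose myeloid sums came nearest to those of plasma cells, it was -0.12, -0.19 and -0.15. A sum of log2 signals does not measure how much RNA came from other cells. The part of such RNA in the member values was not tested.

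**Figure D1:**
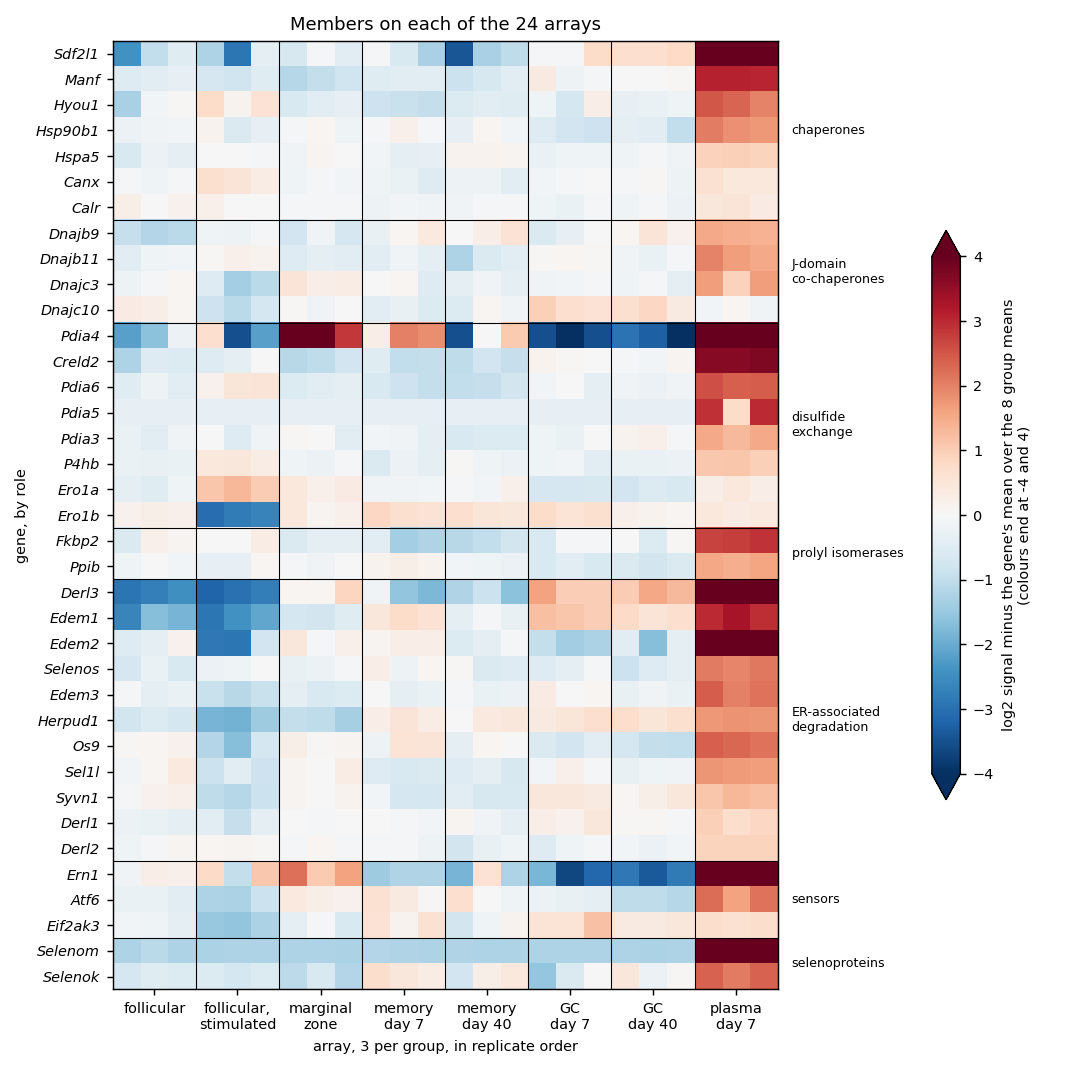
Heat map of the 37 members (rows, by role and then by plasma minus follicular change) on the 24 arrays (columns, 3 per group); colour is the log2 signal minus the mean of the gene over the 8 group means, ending at -4 and 4. The plasma columns are on the red side for nearly all members, pale for some such as Calr and Ero1b, with Dnajc10 an exception. Ern1 and Pdia4 are blue in the germinal center columns.

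Plasma cells of day 7 were compared with follicular cells, memory cells of day 7, germinal center cells of day 7 and stimulated follicular cells. These 4 comparisons share the plasma arrays. Against follicular cells 30 of the 37 members rose and 0 fell, where 20.3% of all tested genes rose and 22.4% fell. The median change of the members was 2.32, against -0.05 over all tested genes. The count was 30 against memory cells (17.9% of tested genes higher, 18.7% lower), 29 against germinal center cells (18.1% and 20.1%) and 30 against stimulated cells (25.3% and 23.1%), with 0 lower in each. Without Pdia5 and Selenom, which plasma cells alone carried through the filter, the 4 counts were 28, 28, 27 and 28 of 35. The members' medians there, over all 37, were 1.84, 2.06 and 2.41. For 36 members all 3 plasma arrays lay above the 3 follicular ones, as held for 31.7% of tested genes, and for 1 they lay below, as held for 36.2%. Pdia5 and Selenom are among the 36, with an order fixed by the filter. The count against memory cells was again 30 without memory replicate 1. The part of the myeloid, T and NK cell RNA in these results was not tested.

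**Figure D2:**
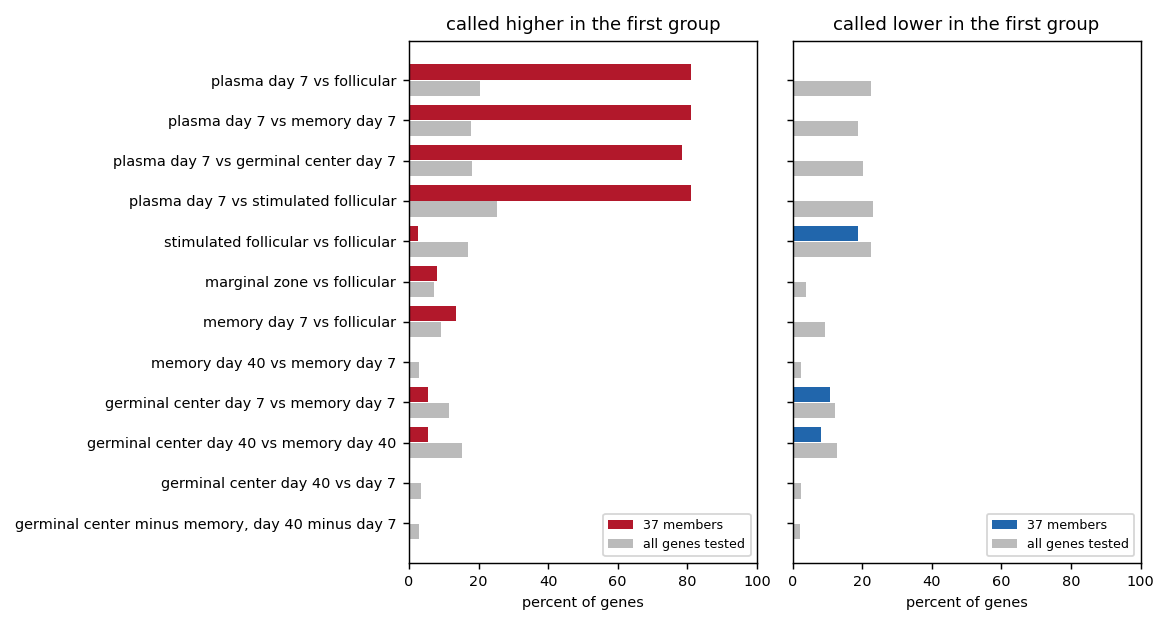
Percent of the 37 members (coloured bars) and of all 11208 genes tested (grey bars) called higher or lower in the first group of each comparison. In the 4 comparisons of plasma cells the bars of the members reach 78.4% to 81.1% on the higher side and 0 on the lower side. In the other 8 at most 5 of the 37 members are called higher and at most 7 lower.

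Of the 3 sensors, 2 rose in plasma cells. Ern1 read 12.03, 11.36 and 11.92 on the plasma arrays and 5.64, 6.06 and 5.99 on the follicular ones. It read 6.56, 4.84 and 6.86 in stimulated cells and 7.99, 6.84 and 7.42 in marginal zone cells, and no array outside the plasma group came above 7.99. The rise over follicular cells was 5.87 ± 0.57 (adjusted p = 3.94e-08). Germinal center cells held the least Ern1, at 3.97, 2.15 and 2.64 on day 7 and 2.95, 2.45 and 2.97 on day 40, all below the follicular arrays. The rise of plasma over germinal center cells of day 7 was 8.85 ± 0.57 (adjusted p = 1.56e-10).

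Atf6 read 13.24, 12.63 and 13.18 in plasma cells and 10.74, 10.75 and 10.59 in follicular cells. The groups were apart by over a unit, and the rise was 2.32 ± 0.20 (adjusted p = 9.13e-09). Eif2ak3 read 12.29, 12.19 and 12.27 in plasma cells and 11.47, 11.39 and 11.2 in follicular cells. These groups did not overlap, but the change of 0.90 ± 0.21 (adjusted p = 0.00108) was under the minimum. Against germinal center cells of day 7, at 12.13, 12.11 and 12.75, Eif2ak3 overlapped with plasma cells and the change was -0.08 ± 0.21 (adjusted p = 0.805).

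**Figure D3:**
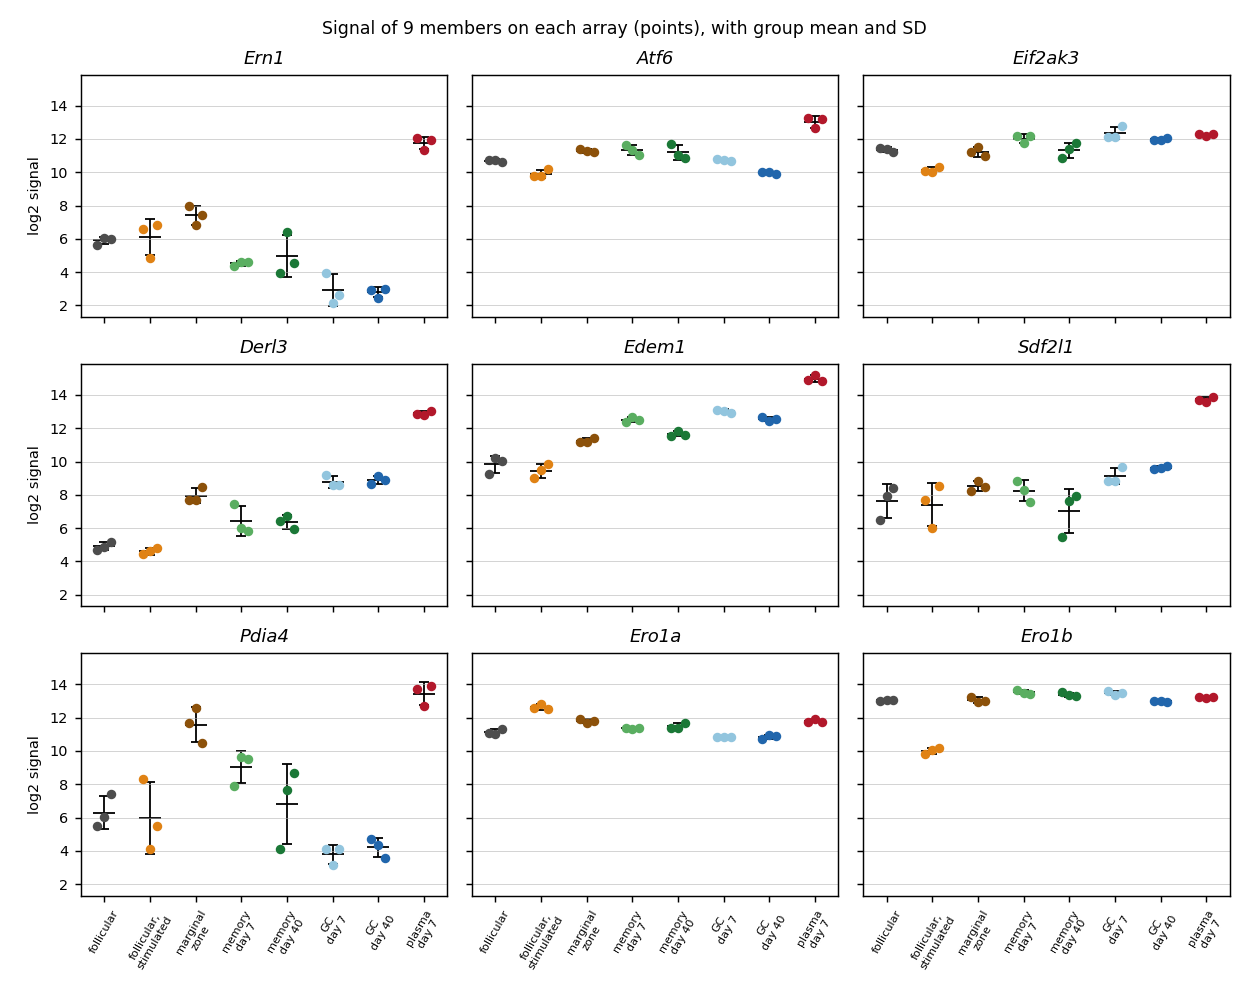
Log2 signal of 9 members on each array (points), with the mean (dash) and SD (bars) of each group of 3. Ern1, Sdf2l1 and Derl3 are highest in plasma cells, Pdia4 is also high in marginal zone cells, Edem1 is higher in memory and germinal center cells than in follicular cells, and Ero1a and Ero1b move apart in stimulated cells.

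Among the 7 chaperones, 5 rose over follicular cells. Sdf2l1, a partner of the ER HSP70 system, read 13.72, 13.56 and 13.9 in plasma cells and 6.49, 7.93 and 8.44 in follicular cells. The plasma arrays were far above, while the follicular arrays spread over nearly 2 units, and the rise was 6.11 ± 0.62 (adjusted p = 7.75e-08). Manf, a secreted ER stress protein, read 14.38, 14.37 and 14.33 against 10.78, 10.82 and 10.95. Its rise of 3.51 ± 0.14 (adjusted p = 1.05e-13) was many times the spread within either group. Hyou1, a large HSP70 relative that exchanges nucleotide on the main one, read 12.62, 12.48 and 12.11 against 8.83, 10.03 and 10.2, with follicular replicate 1 the lowest, a rise of 2.72 ± 0.28 (adjusted p = 8.84e-08).

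The central chaperones changed less on their probe sets. Hspa5, which encodes BiP, rose from 13.57, 13.94 and 13.77 to 15.09, 15.12 and 15.07, by 1.33 ± 0.10 (adjusted p = 1.87e-09). Hsp90b1 rose by 2.04 ± 0.18 (adjusted p = 1.11e-08), to 15.24, 15.02 and 14.94. The lectins that bind sugars on new glycoproteins were not called: Canx changed by 0.59 ± 0.12 (adjusted p = 2.42e-04) and Calr by 0.29 ± 0.10 (adjusted p = 0.0133). Calr stayed between 14.14 and 14.93 on all 24 arrays.

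J-domain proteins hand substrates to BiP. Dnajb9 rose by 2.50 ± 0.20, Dnajb11 by 1.95 ± 0.16 and Dnajc3 by 1.49 ± 0.21 over follicular cells, and the highest adjusted p of the 3 was 6.41e-06. Dnajc10, a J-domain protein that also reduces disulfide bonds, read 10.65, 10.83 and 10.63 in plasma cells and 11.09, 11.03 and 10.85 in follicular cells. It was the only member whose plasma arrays all lay below the follicular ones, by -0.29 ± 0.16 (adjusted p = 0.137).

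Of 8 genes of disulfide exchange, 6 rose. Pdia4 read 13.72, 12.68 and 13.92 in plasma cells and 5.47, 6.01 and 7.41 in follicular cells. It varied widely within groups, 4.13 to 8.7 in memory cells of day 40 alone, and its rise of 7.14 ± 1.03 (adjusted p = 7.47e-06) had the largest SE of all members. Creld2, a small ER protein with isomerase activity, read 14.77, 14.76 and 14.87 against 9.89, 10.62 and 10.58, a rise of 4.44 ± 0.18 (adjusted p = 1.90e-13). Pdia6 rose by 2.84 ± 0.13, Pdia3 by 1.74 ± 0.15 and P4hb, the classical disulfide isomerase, by 1.32 ± 0.11, with adjusted p of at most 8.79e-09. Pdia5 lay at the floor of 2.15 on all 21 other arrays and at 5.38, 3.19 and 5.44 in plasma cells, so its difference of 2.52 is a lower bound; it was tested only because the plasma arrays passed the filter.

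Ero1a and Ero1b encode the oxidases that recharge the disulfide isomerases. Neither was called in plasma cells over follicular cells: the changes were 0.66 ± 0.12 (adjusted p = 6.49e-05) and 0.18 ± 0.11 (adjusted p = 0.182). Both prolyl isomerases rose, Fkbp2 by 2.86 ± 0.24 and Ppib, cyclophilin B, by 1.61 ± 0.11.

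ER-associated degradation, the role with the most members, had 10 of 11 called higher, where 20.3% of tested genes rose. Derl3, of the derlin family of the retrotranslocation channel, read 12.86, 12.77 and 13.04 in plasma cells and 4.7, 4.88 and 5.15 in follicular cells. The rise of 7.98 ± 0.34 (adjusted p = 2.61e-13) compares with 1.12 ± 0.14 for Derl1 and an uncalled 0.94 ± 0.14 for Derl2. Edem1, a lectin-like protein that marks misfolded glycoproteins, read 14.89, 15.2 and 14.86 against 9.27, 10.21 and 10.06, a rise of 5.14 ± 0.21 (adjusted p = 2.01e-13). Edem2, which trims their mannose, read 13.17, 13.0 and 13.02 against 8.19, 8.36 and 8.88, a rise of 4.59 ± 0.42 (adjusted p = 2.14e-08), and Edem3 rose by 2.44 ± 0.14.

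The ubiquitin ligase Syvn1 (HRD1) rose by 1.13 ± 0.15 and its partner Sel1l by 1.60 ± 0.14. Of the proteins that gather around this ligase, Herpud1 rose by 2.43 ± 0.15, Selenos by 2.56 ± 0.18 and the lectin Os9 by 2.19 ± 0.22. The highest adjusted p of these 5 was 1.77e-06.

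Both further selenoproteins rose. Selenom, a thiol protein of the ER lumen, read 11.97, 11.71 and 12.29 in plasma cells and at most 2.33 on the other 21 arrays. Its difference of 9.75 is a lower bound, because the follicular arrays were at background, and it too was tested only through the plasma arrays. Selenok, an ER membrane protein, rose by 2.83 ± 0.32 (adjusted p = 2.99e-07).

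Against the other groups, sizes differed by member, and the plasma arrays are shared throughout. Over memory cells of day 7 Ern1 rose by 7.25 ± 0.57, Derl3 by 6.45 ± 0.34 and Pdia4 by 4.42 ± 1.03. Over germinal center cells of day 7 Pdia4 rose by 9.64 ± 1.03, Edem2 by 5.55 ± 0.42 and Derl3 by 4.10 ± 0.34. Over stimulated cells Derl3 rose by 8.27 ± 0.34 and Edem2 by 6.52 ± 0.42, and members uncalled elsewhere were called: Ero1b rose by 3.22 ± 0.11 (adjusted p = 1.43e-14) and Eif2ak3 by 2.12 ± 0.21. Hspa5 (0.93) and P4hb (0.66) were under the minimum there. Ero1a was lower in plasma than in stimulated cells by -0.84 ± 0.12 (adjusted p = 3.55e-06), not called, but higher on its other 2 probe sets, by 1.59 and 1.04. Canx overlapped between these groups (-0.01, adjusted p = 0.972). Its other probe sets differed by 1.86 and -0.31, and without cross-hybridizing probe sets Canx was called higher in plasma cells.

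**Figure D4:**
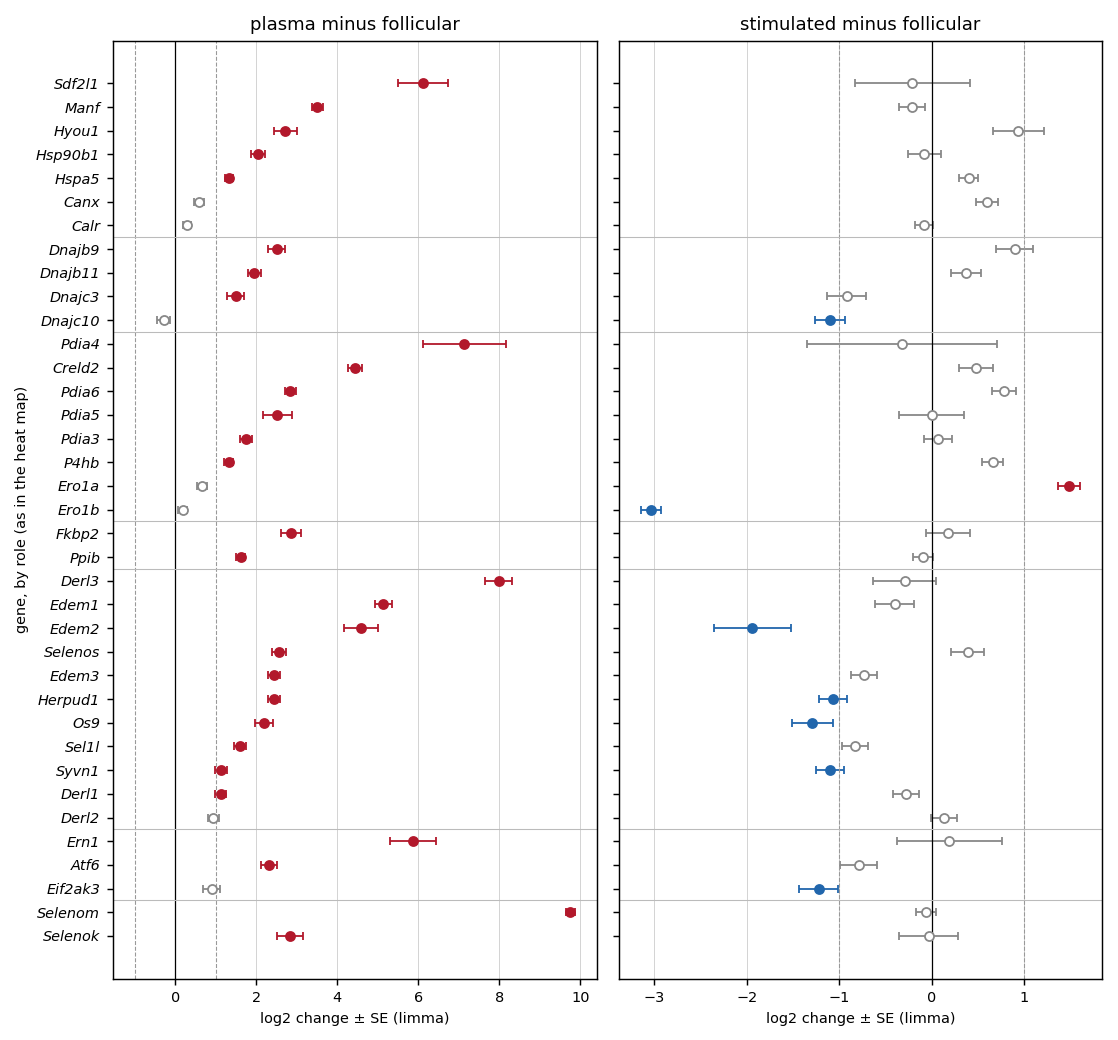
Log2 change ± SE (limma) of each member in plasma and in stimulated cells over the same follicular arrays; filled points were called (red higher, blue lower), open points were not, and dashed lines mark the minimum change of 1. On the left 30 filled points lie to the right of 1, those of Selenom and Pdia5 being lower bounds; on the right 1 lies above 1 and 7 below -1.

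The stimulated follicular cells showed what 6 h of antigen receptor and CD40 signals, with culture, did to these genes. Of the 37 members 1 rose and 7 fell, where 16.9% of tested genes rose and 22.5% fell, shares near those of the members on the lower side and above them on the higher side. The median change was -0.08, against -0.02 over all tested genes. Ero1b read 9.79, 10.04 and 10.15 in stimulated cells and 13.0, 13.08 and 13.03 in unstimulated ones. All 21 arrays of the other groups lay at 12.92 or above, and the fall was -3.04 ± 0.11 (adjusted p = 8.97e-14). Ero1a read 12.59, 12.81 and 12.51 against 11.1, 11.01 and 11.32, and no array of another group reached these values. It was the member that rose, by 1.49 ± 0.12 (adjusted p = 2.50e-09).

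Of the other 6 falls 4 were of ER-associated degradation (Edem2, Os9, Syvn1 and Herpud1, of 11 members), 1 of a sensor and 1 of a cochaperone. The chaperones, isomerases and selenoproteins had 0 called. The 4 of 11 are 36.4%, beside 22.5% of all tested genes that fell. With so few members in a role, these counts do not set 1 role apart. Edem2 read 5.85, 5.83 and 7.94 against 8.19, 8.36 and 8.88, so that stimulated replicate 3 was near the follicular arrays, a fall of -1.94 ± 0.42 (adjusted p = 6.93e-04). Os9 fell by 1.29, Eif2ak3 by 1.22, Syvn1 by 1.10, Dnajc10 by 1.10 and Herpud1 by 1.07 on the log2 scale, with adjusted p of at most 6.46e-05. Ern1 changed by 0.19 ± 0.57 (adjusted p = 0.834) and Atf6 by -0.79 ± 0.20 (adjusted p = 0.00248), neither of them called. The call of Edem2 ended with only the compared groups (adjusted p = 0.0697). With the mean of all probe sets of a gene Edem2 (-0.69), Eif2ak3 (-0.40) and Dnajc10 (-0.76) were not called, without cross-hybridizing probe sets Dnajc10 (-0.48) was not, and without stimulated replicate 2 Dnajc10 (-0.99) and Herpud1 (-0.98) were not. With no minimum change, 19 members would be called in place of 8.

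In marginal zone cells 3 members rose over follicular cells and 0 fell, where 7.21% of tested genes rose and 3.83% fell. Pdia4 read 11.68, 12.56 and 10.48, above every follicular array, and rose by 5.28 ± 1.03 (adjusted p = 0.00104). Derl3 read 7.69, 7.69 and 8.46 and rose by 3.04 ± 0.34 (adjusted p = 1.75e-06). Edem1 read 11.2, 11.17 and 11.42 and rose by 1.42 ± 0.21 (adjusted p = 6.85e-05). Ern1 lay above the follicular arrays, but its change of 1.52 ± 0.57 had an adjusted p of 0.0758. With no minimum change, the count was 7. Prdm1, the gene of the plasma cell regulator Blimp-1, was higher by 4.69 ± 0.55 in the same comparison and by 8.02 ± 0.55 in plasma cells over follicular cells.

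Memory cells of day 7 had 5 members higher and 0 lower than follicular cells, where 9.18% of tested genes rose and 9.23% fell. Edem1 read 12.37, 12.65 and 12.5, more than 2 units above the highest follicular array, and rose by 2.66 ± 0.21 (adjusted p = 2.20e-08). Derl3 read 7.46, 6.03 and 5.82 and rose by 1.53 ± 0.34 (adjusted p = 0.00168), with its highest value on replicate 1, the array with the raised germinal center and myeloid sums. Dnajb9 rose by 1.11 ± 0.20, Selenok by 1.06 ± 0.32 and Herpud1 by 1.02 ± 0.15. Without memory replicate 1 the count was 6, of which 1 was lower: Pdia4 (3.28) and Fkbp2 (-1.21) were gained and Selenok (0.96) was lost. Dnajb9 (0.94) was lost without memory replicate 3, and Herpud1 without memory replicate 2 (0.94) or without follicular replicate 1 or 3 (0.99 each). With only the compared groups Derl3 was not called (adjusted p = 0.0761). The count was 9 with the mean of all probe sets of a gene, 3 without cross-hybridizing probe sets and 15 with no minimum change.

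Between memory cells of day 40 and day 7, 0 members were called by limma in either direction, where 2.74% of tested genes were higher and 2.28% lower. At an unadjusted p under 0.05 there were 9, and with no minimum change 4 passed. Eif2ak3 changed by -0.70 ± 0.21 (adjusted p = 0.0394) with overlapping arrays, and Hspa5 by 0.40 ± 0.10 (adjusted p = 0.0185) with all 3 arrays of day 40 above those of day 7.

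Germinal center cells of day 7 were set against memory cells of the same day. Of the members 2 rose and 4 fell, where 11.6% of tested genes rose and 12.1% fell. Derl3 read 9.22, 8.58 and 8.58 in germinal center cells and rose by 2.36 ± 0.34 (adjusted p = 2.06e-05). Dnajc10 read 11.7, 11.44 and 11.33 against 10.31, 10.48 and 10.22 and rose by 1.15 ± 0.16 (adjusted p = 1.69e-05). Pdia4 read 4.13, 3.14 and 4.13 against 7.91, 9.65 and 9.5, a fall of -5.22 ± 1.03 (adjusted p = 4.99e-04). Ern1 fell by 1.60 (adjusted p = 0.0299), Edem2 by 1.42 (adjusted p = 0.0113) and Selenok by 1.19 (adjusted p = 0.00560) on the log2 scale. Memory replicate 1, with a germinal center marker sum near those of germinal center cells (83.32 to 84.05), bore on this comparison: without it 5 members rose and 5 fell. Added were Creld2 (1.02), Fkbp2 (1.04), Syvn1 (1.10) and Os9 (-1.11). The call of Ern1 ended with the mean of probe sets (-0.42), with an offset of 16 (-0.68), with no filter, under quantile normalization, with only the compared groups, without memory replicate 2 or 3 and without germinal center replicate 2 or 3. With the mean of probe sets Edem2 (-0.66) and Selenok (-0.96) were not called, and without cross-hybridizing probe sets Dnajc10 (0.95) and Selenok (-0.73) were not. With only the compared groups Selenok was not called either, nor was it without germinal center replicate 1 (-0.77). With no minimum change, 19 members passed.

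At day 40, 2 members were higher and 3 lower in germinal center than in memory cells, where 15.3% of tested genes were higher and 12.7% lower. Sdf2l1 read 9.57, 9.59 and 9.72 against 5.5, 7.63 and 7.91, a rise of 2.61 ± 0.62 (adjusted p = 0.00183). Derl3 read 8.63, 9.14 and 8.89 against 6.41, 6.76 and 5.96, a rise of 2.51 ± 0.34 (adjusted p = 6.27e-06). Ern1 fell by 2.18 (adjusted p = 0.00377) and Atf6 by 1.22 (adjusted p = 6.05e-05) on the log2 scale. The call of Ern1 ended with the mean of probe sets (-0.46) and with only the compared groups (adjusted p = 0.0502). Pdia4 read 4.7, 4.38 and 3.57 against 4.13, 7.66 and 8.7; the groups overlapped, and the fall of -2.61 ± 1.03 (adjusted p = 0.0453) lost its call with no filter, under quantile normalization, with the replicate block and on the omission of any germinal center array of day 40, among others, with adjusted p of 0.0505 to 0.236. Atf6 (-0.97) was not called without memory replicate 1. With no minimum change, 21 members passed, and with only the compared groups in the fit 3 did.

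Germinal center cells of the 2 days were compared next. Between day 40 and day 7, 0 members were called by limma, where 3.58% of tested genes were higher and 2.36% lower, and 6 passed an unadjusted p under 0.05. Atf6 changed by -0.76 ± 0.20 (adjusted p = 0.0212) and Ero1b by -0.50 ± 0.11 (adjusted p = 0.00665), below the minimum. Whether the germinal center minus memory difference itself changed between the days was tested as an interaction: 0 members were called, where 2.92% of tested genes were higher and 2.03% lower, and 6 had an unadjusted p under 0.05. Without germinal center day 7 replicate 3, 1 member, Selenok, was called in each of these 2 tests, at 1.16 and 1.69.

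Several members have more than 1 probe set, and these bear on the sizes given. For 26 members at least 2 probe sets rose above the array median on 3 arrays or more. In 18 of the 26 the probe set used, the one with the highest mean, had the smallest plasma minus follicular difference. Of the 45 other probe sets, 41 had a difference of at least 1 and 2 were below 0. Canx differed by 0.59 on the probe set used and by 1.36 and 3.76 on the others. Ero1a differed by 0.66 against 3.58 and 4.11, and Eif2ak3 by 0.90 against 1.28 and 2.78. Calr stayed small on all 3, at 0.29, 0.26 and 0.38.

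For 3 members another probe set pointed the other way. Dnajc10 differed by -0.29 on the probe set used and by 2.22 and 2.20 on the other 2, so its lack of a rise in plasma cells holds for 1 probe set only. Ero1b differed by 0.18 on the probe set used, by 3.27 on the second and by -1.71 on the third. Derl2 differed by 0.94 and -1.60. In stimulated minus follicular cells, by contrast, Ero1b was lower on all 3 probe sets (-3.04, -5.39 and -3.54) and Ero1a higher on all 3 (1.49, 1.99 and 3.08). Dnajc10 was lower there on all 3 (-1.10, -0.70 and -0.48), while Eif2ak3 (-1.22, -0.44 and 0.48) and Edem2 (-1.94 and 0.56) had both signs.

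**Figure D5:**
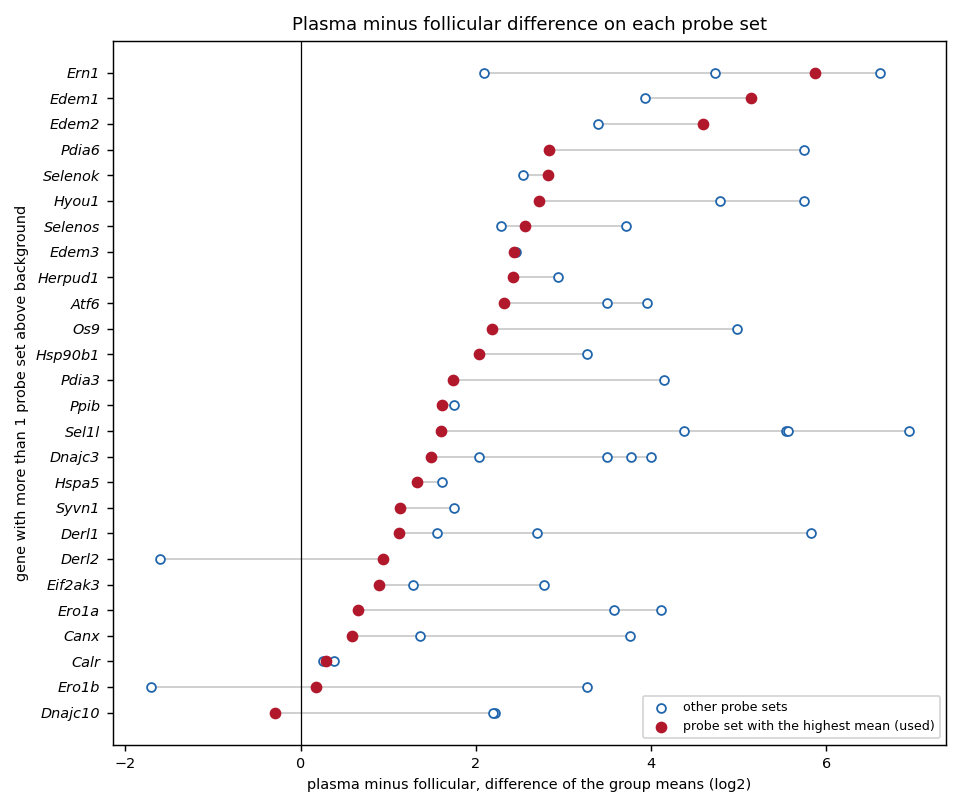
Plasma minus follicular difference of the group means (log2) on each probe set above background, for the 26 members with more than 1; red points are the probe sets used, open points the others. In 18 of 26 rows the red point is the leftmost, and in the rows of Dnajc10, Ero1b and Derl2 points lie on both sides of 0.

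The signalling genes around the sensors were read from a list of 18, of which 16 were tested. In plasma cells 9 of the 16 rose over follicular cells and 0 fell, where 20.3% of tested genes rose and 22.4% fell. The median change of the 16 was 1.10. For this and the other gene lists below, it was not checked which genes passed the filter through the plasma arrays only. A rise in plasma cells would be fixed in advance for such genes. Xbp1, the transcription factor whose mRNA IRE1 splices, read 14.92, 15.06 and 14.97 against 11.16, 11.33 and 11.32, a rise of 3.71 ± 0.20 (adjusted p = 1.42e-11); spliced and unspliced forms were not separated. Bhlha15, which encodes the secretory cell regulator MIST1, rose by at least 10.65 ± 0.12 and Chac1, a target of the PERK arm, by at least 8.41 ± 0.56, both from background. Creb3l2, an ER-bound transcription factor, rose by 9.32 ± 0.52. Atf4 rose by 1.10 ± 0.15 (adjusted p = 2.58e-06) and Ddit3, which encodes CHOP, by 1.09 ± 0.16 (adjusted p = 7.43e-06), both factors of the PERK arm.

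In stimulated follicular cells 2 of the 16 rose and 2 fell, where 16.9% of tested genes rose and 22.5% fell. Xbp1 read 9.79, 9.53 and 10.26, below every follicular array, and fell by -1.41 ± 0.20 (adjusted p = 9.33e-06), as did Creb3 by -1.43 ± 0.18. Ddit3 read 11.58, 11.54 and 12.02 against 9.97, 10.37 and 10.14 and rose by 1.55 ± 0.16 (adjusted p = 1.04e-07). Trib3, a pseudokinase induced through CHOP, rose from background by at least 2.62 ± 0.37. Atf4 changed by 0.52 ± 0.15 (adjusted p = 0.00555), under the minimum.

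Xbp1 was also higher in germinal center than in memory cells of day 7, by 1.27 ± 0.20 (adjusted p = 6.72e-05), while Ern1 was lower there. At day 40 the difference in Xbp1 was 0.76 ± 0.20 (adjusted p = 0.00464), under the minimum. Ddit3 was lower in germinal center than in memory cells on both days, by -0.58 ± 0.16 and -0.51 ± 0.16, and Atf4 differed by 0.10 ± 0.15 and -0.09 ± 0.15, none of them called. Prdm1 fell in germinal center against memory cells at day 7, by -1.94 ± 0.55 (adjusted p = 0.00812), and rose at day 40, by 2.10 ± 0.55 (adjusted p = 0.00392). In marginal zone cells Xbp1 differed from follicular cells by -0.10 ± 0.20 and in memory cells of day 7 by -0.51 ± 0.20, neither called.

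Other signalling genes were called in single comparisons of the B cell groups. Creb3l2 rose by 2.57 ± 0.52 and Wfs1, an ER membrane protein, by 1.75 ± 0.45 in marginal zone over follicular cells. Creb3l2 was lower in germinal center than in memory cells of day 7, by -2.09 ± 0.52 (adjusted p = 0.00326). At day 40 Wfs1 fell by -1.59 ± 0.45 and Ppp1r15a, a phosphatase subunit that ends the PERK signal, by -1.85 ± 0.62 in the same pair of cell types.

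Genes of ER folding outside the members were read from a list of 25, with 21 tested. Over follicular cells 16 rose in plasma cells and 1 fell, where 20.3% of tested genes rose and 22.4% fell. The median change of the 21 was 2.14. Fkbp11, a prolyl isomerase, rose by 7.47 ± 0.26, Hspa13 by 4.22 ± 0.20 and Sil1, a nucleotide exchange factor of BiP, by 3.70 ± 0.19. The gene that fell was Cnpy3, a chaperone of toll-like receptors, from 10.53, 10.12 and 10.46 to 4.8, 6.09 and 5.09 (-5.04 ± 0.28, adjusted p = 1.70e-11). In stimulated cells 1 of the 21 rose and 6 fell, beside the 16.9% and 22.5% of tested genes. The largest of these falls were those of Nucb2 (-4.16 ± 0.28), Fkbp11 (-2.95 ± 0.26) and Mzb1 (-2.74 ± 0.11), the last a cochaperone of antibody assembly.

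Fkbp11 stood out among the memory cells. It read 7.23, 7.85 and 7.11 at day 7 and 3.72, 2.45 and 2.76 at day 40, with germinal center cells at 2.84, 2.8 and 2.27 on day 7 and 2.39, 2.29 and 2.15 on day 40. Memory cells of day 7 were above every array outside the plasma group, and the fall to day 40 was -4.42 ± 0.26 (adjusted p = 3.58e-09). Of the 21 genes Fkbp11 and Cnpy2 (-1.05 ± 0.15) were called between the memory days, where 2.74% of tested genes were higher and 2.28% lower. In germinal center against memory cells 1 of the 21 rose and 4 fell at day 7, beside 11.6% and 12.1% of tested genes. At day 40, 0 rose and 1, Nucb2, fell, beside 15.3% and 12.7%. In the interaction of cell type and day 2 of the 21 were called, where 2.92% of tested genes were higher and 2.03% lower. Fkbp11 had a term of 4.06, whose size is not exact because germinal center cells of day 40 were at background and which rests on the memory cells, and Cnpy2 one of 1.15 ± 0.22 (adjusted p = 0.00239). For Cnpy2 both calls ended without cross-hybridizing probe sets (0.18 and 0.07).

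Of 23 further genes of ER-associated degradation, all tested, 12 rose and 0 fell in plasma cells over follicular cells. Among all tested genes 20.3% rose and 22.4% fell there, and the median change of the 23 was 1.01. Man1b1, a mannosidase, rose by 3.76 ± 0.39, the ubiquitin-conjugating enzyme Ube2j1 by 3.44 ± 0.22 and the lectin Erlec1 by 2.86 ± 0.14. In stimulated cells 2 of the 23 rose and 3 fell, again beside 16.9% and 22.5%. Vcp, the ATPase that pulls proteins out of the membrane, rose by 1.23 ± 0.16 there, and Ngly1, which strips their sugars, fell by -2.12 ± 0.21 (adjusted p = 5.88e-08).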

How the data were processed

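RNA of 24 samples was amplified and hybridized to Affymetrix mouse expression arrays. The deposited values are log2 summaries per probe set made with GCRMA, per the submitters' processing notes, which give no version; other steps are not given in the sources used here. GCRMA subtracts background by probe sequence, which puts 36.8% to 43.1% of probe sets of an array at the floor, so changes from there are lower bounds. Of 45101 probe sets, 34945 name 1 gene and 932 several; each gene was read from its probe set with the highest mean, matched by Entrez identifier. A group is at background where all 3 arrays lie at or below their own median. One limma model (version 3.58.1, R 4.3.3) with 8 group means gave 12 comparisons, with 16 residual degrees of freedom. It was tested on simulated data. The array number limits precision. Members and gene lists were chosen with earlier results of these data known. All members could be named; values on every array are given for up to 3 per role by plasma change, up to 2 called per other comparison, those called against the majority, and the sensors; up to 4 called genes per other list and comparison, with Xbp1, Ddit3, Atf4 and Prdm1, were eligible. Alternatives were other filters (none, or the 75th percentile), quantile normalization, an offset of 16, the mean of probe sets, no probe sets marked as cross-hybridizing, a trended robust prior, only compared groups, no minimum change, a replicate block and each array left out. Figures used Python 3.11.15 and matplotlib 3.10.9.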

Additional observations from a re-analysis of the deposited data

Results flagged for a closer look

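The difference between germinal center and memory cells was tested for a change between day 7 and day 40 by the interaction term of limma. Of all tested genes 2.92% were called higher and 2.03% lower in it. Described here are 3 of those called, all outside the 37 members. For Prdm1 the germinal center minus memory difference was -1.94 ± 0.55 at day 7 and 2.10 ± 0.55 at day 40, and it changed by 4.05 ± 0.78 (adjusted p = 0.00288). Prdm1 read 3.37 ± 0.20 in germinal center cells of day 7 and 6.60 ± 0.25 in those of day 40 (SD, n = 3). For Fkbp11 the change was 4.06, not an exact size because germinal center cells of day 40 were at background; it reflects the higher memory cells of day 7. For Cnpy2 it was 1.15 ± 0.22 (adjusted p = 0.00239), and 0.07 without cross-hybridizing probe sets.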

How the results depend on the processing

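The counts of members called in the 4 comparisons of plasma cells stayed within 1.5 times their value under all alternatives run: 27 to 35 against follicular cells, 28 to 35 against memory cells, 27 to 35 against germinal center cells and 29 to 36 against stimulated cells, and with single arrays left out 28 to 31, 27 to 30, 27 to 29 and 28 to 30. With no minimum change the count was 19 for stimulated against follicular cells, 7 for marginal zone, 15 for memory day 7 against follicular cells, 4 for memory day 40 against day 7, 19 (day 7) and 21 (day 40) for germinal center against memory cells, and 2 for germinal center day 40 against day 7, since that limit was lifted. The mean of probe sets gave 9 for memory day 7 against follicular cells and 1 for memory day 40 against day 7, and leaving out cross-hybridizing probe sets gave 3 for the former; for these the cause was not tested. Only the compared groups in the fit, hence fewer samples, gave 3 at day 40 for germinal center cells set against memory cells. With arrays left out in turn the counts ran from 7 to 9 (stimulated), 3 to 4 (marginal zone), 4 to 7 (memory day 7 against follicular), 0 to 0 (memory day 40 against day 7), 5 to 10 and 4 to 5 (germinal center against memory, day 7 and day 40), 0 to 1 (germinal center day 40 against day 7) and 0 to 1 (interaction). No member changed direction after a call. Of the other ER folding genes, Cnpy2 in memory day 40 against day 7 went from -1.05 to 0.18 without cross-hybridizing probe sets.

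The labels do not say whether the replicate numbers pair the samples. Deviations of arrays with the same number correlated at -0.496 to 0.445, above 0.1 in 39 of 84 pairs. Their median was 0.084, against -0.026 for arrays with different numbers, and 14 of 24 arrays correlated best with their own number. These values do not settle whether samples of the same number belong together. With the number as a replicate block, 30 members were called against follicular cells, 8 in stimulated cells and 4 in germinal center against memory cells of day 40, where Pdia4 was lost. Signal at or near the floor limits Pdia5, Selenom and, on single germinal center arrays, Ern1. Pdia4 was low on the germinal center arrays too, at 3.14 to 4.7. That is above background but not far from it, so its sizes against those cells are uncertain.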
